A study of Homo sapiens with 2 samples.

Results

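The genes described here encode the kinases of the mitogen-activated protein (MAP) kinase cascade. They were taken by name, as all genes of the deposited window table called MAP2K, MAP3K, MAP4K or MAPK followed by a number, without MAP3K7 and MAP3K14. The rule found 38 of the 47352 gene names in the table, comprising 5 MAP4K, 13 MAP3K, 7 MAP2K and 13 MAPK genes. It used no measured value. For each gene the longest transcript listing was used.

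MAP kinase signalling runs in relays. A MAP3K phosphorylates a MAP2K, which phosphorylates a MAPK on a threonine and a tyrosine of its activation loop, and MAP4Ks act above some MAP3Ks. The ERK relay answers mainly to growth factors and antigen receptors, and the JNK and p38 relays to stress and inflammatory signals. In B cells these relays lie downstream of the B cell receptor, CD40 and Toll-like receptors. N6-methyladenosine (m6A) is a methylated base of messenger RNA that is known to lie mostly in long internal exons and in the last exon near the stop codon.

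The study mapped m6A in GM12878 cells, human B cells that were made into a permanent lymphoblastoid line with Epstein-Barr virus, grown in RPMI medium with 15% serum. Total RNA was fragmented, and 1 library was made from fragments bound by an m6A antibody (the IP) and 1 from unselected fragments (the input), neither with any other treatment. With 1 library of each kind there are no replicates, and hence no SD and no test. Values are coverage per base scaled by the authors for each library, and they are levels per length.

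The IP coverage corresponded to 58.5 M reads of 36 nt and the input coverage to 51.7 M. The source field of the labels reads mouse embryonic stem cells, whereas organism and cell line are given as human GM12878. All 8 B cell markers checked were measured, with mean coverage from 8.38 to 1228 in the IP and from 9.93 to 775 in the input. None (0) of 6 embryonic stem cell markers was, their input lying between 0.00214 and 0.153, and 1 of 5 was measured in each of the T cell, myeloid and fibroblast lists.

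The window score deposited by the authors is the log2 ratio of IP to input in a window of about 100 nt, each first divided by its gene median, with 1 added to every number. Windows scoring at least 2, or 4-fold, are called enriched, and 2 or more of them in a row form a region, whose peak is its highest window. The gene-level score is the highest mean over 2 neighbouring windows. Genes with a mean scaled input of at least 1 are called measured. The intervals given with scores are 95% counting intervals, which cover counting error only, since PCR copies are not independent molecules. They treat the pair as fixed in advance, whereas it was chosen as the highest of its gene. Scores of longer listings are the highest of more pairs, and intervals of differences between genes do not allow for this. Exact intervals given with shares are binomial and treat genes or peaks as independent draws. The genes are, however, all those that the name rule found, in 1 library of each kind.

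Of the 38 genes, 30 were measured, and 18 of these 30 had an enriched region (60%, exact 95% interval 40.6 to 77.3), against a background of 44.2% of all 10756 measured genes. The median gene-level score of the 30 was 2.44, against 1.81 over all measured genes. By tier, a region was found in 0 of 4 measured MAP4K genes, 8 of 9 MAP3K genes, 2 of 7 MAP2K genes and 8 of 10 MAPK genes. Median scores in that order were 1.71, 3.60, 1.64 and 2.64. Regions of at least 10 windows occurred in 5 of the 30 (background 7.66%) and at least 2 regions in 8 (15.9%). Of all windows of the 30 genes 161 of 2617 were enriched (6.15%, background 5.75%). Among the 8 genes under the input minimum, MAP3K9 and MAP3K13 also had a region, where the background was 5.17%. That background covers all 36501 genes under the minimum and is not matched in input or length. MAP3K9 had a mean input of 0.833 over 119 windows, and MAP3K13 had 0.277 over 206.

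The count moved with the threshold and with the number added before the logarithm, as the background did. It was 28 of 30 at a threshold of 1 (background 71.4%) and 12 at a threshold of 3 (26%). Runs of at least 4 windows left 14 (31%). Adding 0.1 gave 21 (51.8%) and adding 5 gave 13 (33.9%), and without centring on the gene median 16 had a region (45.5%). With an input minimum of 5 it was 4 of 9 (34.1%).

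**Figure D1:**
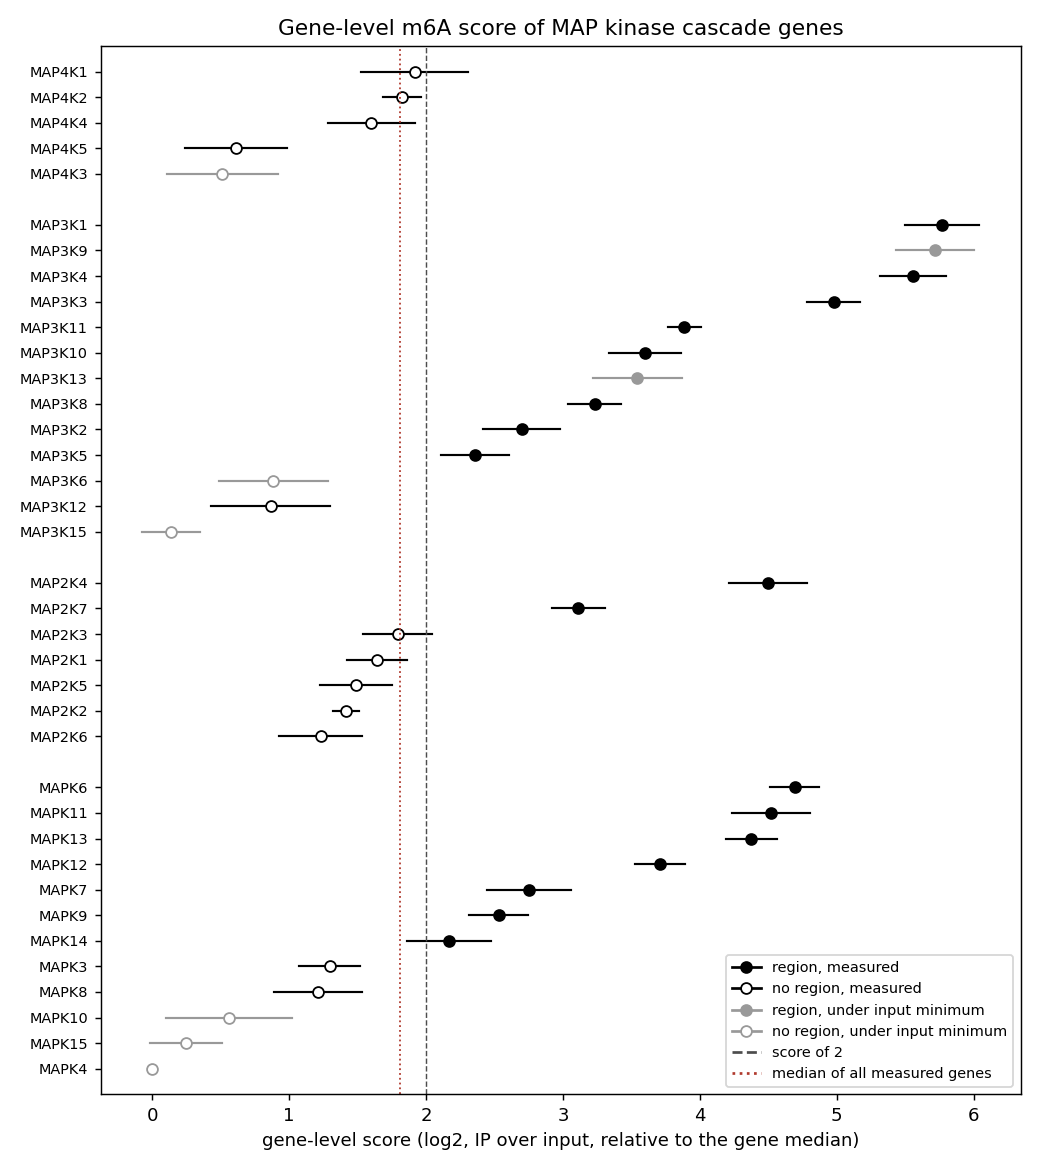
Gene-level score (log2, horizontal axis) of 37 of the genes, grouped by tier from MAP4K at the top to MAPK at the bottom, with 95% counting intervals as bars. Filled points have an enriched region and grey points lie under the input minimum. The 4 highest scores are all MAP3K genes, MAP3K1 at 5.77 first, and no MAP4K gene reaches 2.

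Transcripts of more windows and of longer exons had a region more often in the whole table, so the members' share has to be read against genes of like structure. The 18 measured members with a region stood against 17.3 genes when the background share of each gene's stratum was summed by number of windows, 15.1 by the length of the longest exon and 14.2 by input level. Among members whose longest exon had up to 10 windows, 0 of 4 had a region (background 8.84%). The count was 3 of 7 at 11 to 20 windows (36.9%), 5 of 8 at 21 to 40 (53.5%), 7 of 8 at 41 to 80 (67.8%) and 3 of 3 above that (81.9%). The widest gap was at 41 to 80 windows, where the background share corresponds to 5.42 of the 8 genes. The members' surplus over the background of 44.2% is thus smaller when genes of like exon length or window number are the comparison.

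**Figure D2:**
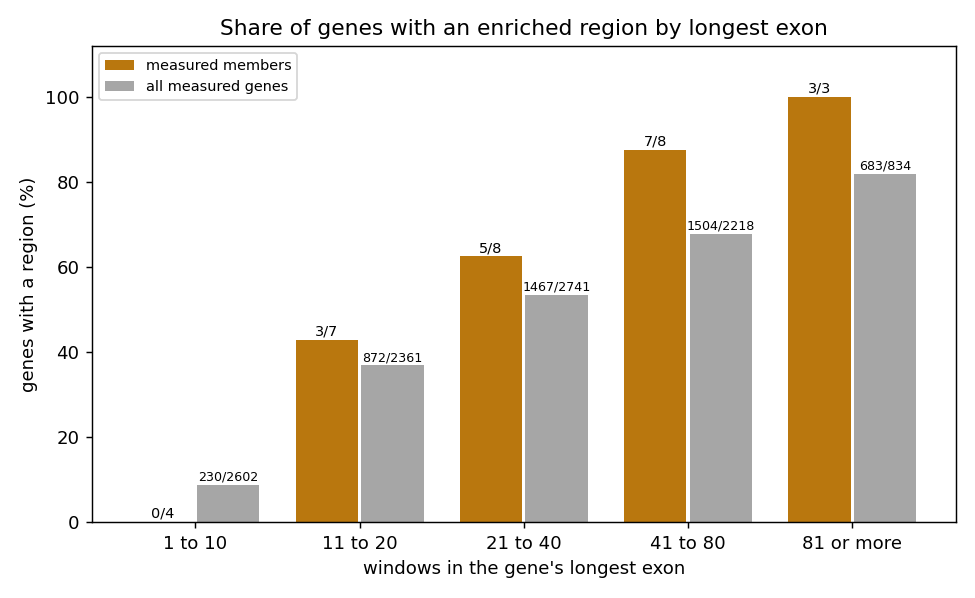
Share of genes with an enriched region (percent, vertical axis) by the number of windows in the gene's longest exon, for measured members (left bars) and all measured genes (right bars), with counts above the bars. Both rise with exon length, members from 0 of 4 to 3 of 3.

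The MAP4K genes, which stand at the top of the relay, carried no region. MAP4K1 (HPK1), a kinase of blood cells that restrains lymphocyte receptor signalling, had the highest input of all 38 transcripts, with a mean coverage of 16.3 in the IP and 20.1 in the input. Its gene-level score was 1.92 (1.53 to 2.31), and it came from the edge of the 5′ terminal exon, where the IP had only 5.46 and the input 1.49. That transcript has 32 exons, none longer than 5 windows.

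MAP4K2, a kinase of the germinal centre kinase family, had 70.3 in the IP and 25.9 in the input at its highest pair, and a score of 1.83 (1.69 to 1.97). MAP4K4, which acts toward JNK, scored 1.60 with 11.6 in the IP and 3.23 in the input. MAP4K5 scored 0.61 and MAP4K3, under the minimum with means of 0.086 in the IP and 0.152 in the input, scored 0.51. All 5 therefore lay below the threshold, and the intervals of MAP4K1 and MAP4K2 overlapped (difference 0.09, interval -0.32 to 0.50), with MAP4K2 the higher (-0.33) when 5 was added and also without centring (-0.063). With 0.1 in place of 1 added before the logarithm, MAP4K1 and MAP4K4 had a region, as did MAP3K12 among the other measured members.

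The MAP3K genes held the highest scores of the family. MAP3K1 (MEKK1), which joins a kinase domain to a ubiquitin ligase domain, had 181 in the IP and 2.51 in the input at its highest pair, a ratio of 72.1. Its gene-level score was 5.77 (5.50 to 6.04), above 99.2% of measured genes by rank. The pair lay in exon 14 of 20, an internal exon of 26 windows, in which a region spanned 13 windows. Along that exon the IP stood at 9.42 in window 3, 208 in window 9 and 8.33 in window 18, while the input stayed between 0.666 and 6.96. Coverage in the IP was thus high over one stretch of the exon and low at both of its edges. MAP3K1 had 3 further regions, of which the one in exon 20, the longer terminal exon, peaked at 48.9 in the IP and 5.11 in the input.

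MAP3K4 (MTK1), the MAP3K that GADD45 proteins activate, showed a second case of a long internal exon. Its exon 3 of 27, with 28 windows, held 2 regions, of 7 and 13 windows. The first peaked at 326 in the IP against 4.37 in the input and the second at 127 against 1.78. Between them, window 12 had 12.5 in the IP and 2.43 in the input. Window 7, inside the first region, had a lower IP of 10.8, at an input of 0.784. The split into 2 regions thus follows from the score threshold and not from IP coverage alone. The gene-level score was 5.56 (5.32 to 5.79), and a shorter region of 3 windows lay in the 3′ terminal exon.

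**Figure D3:**
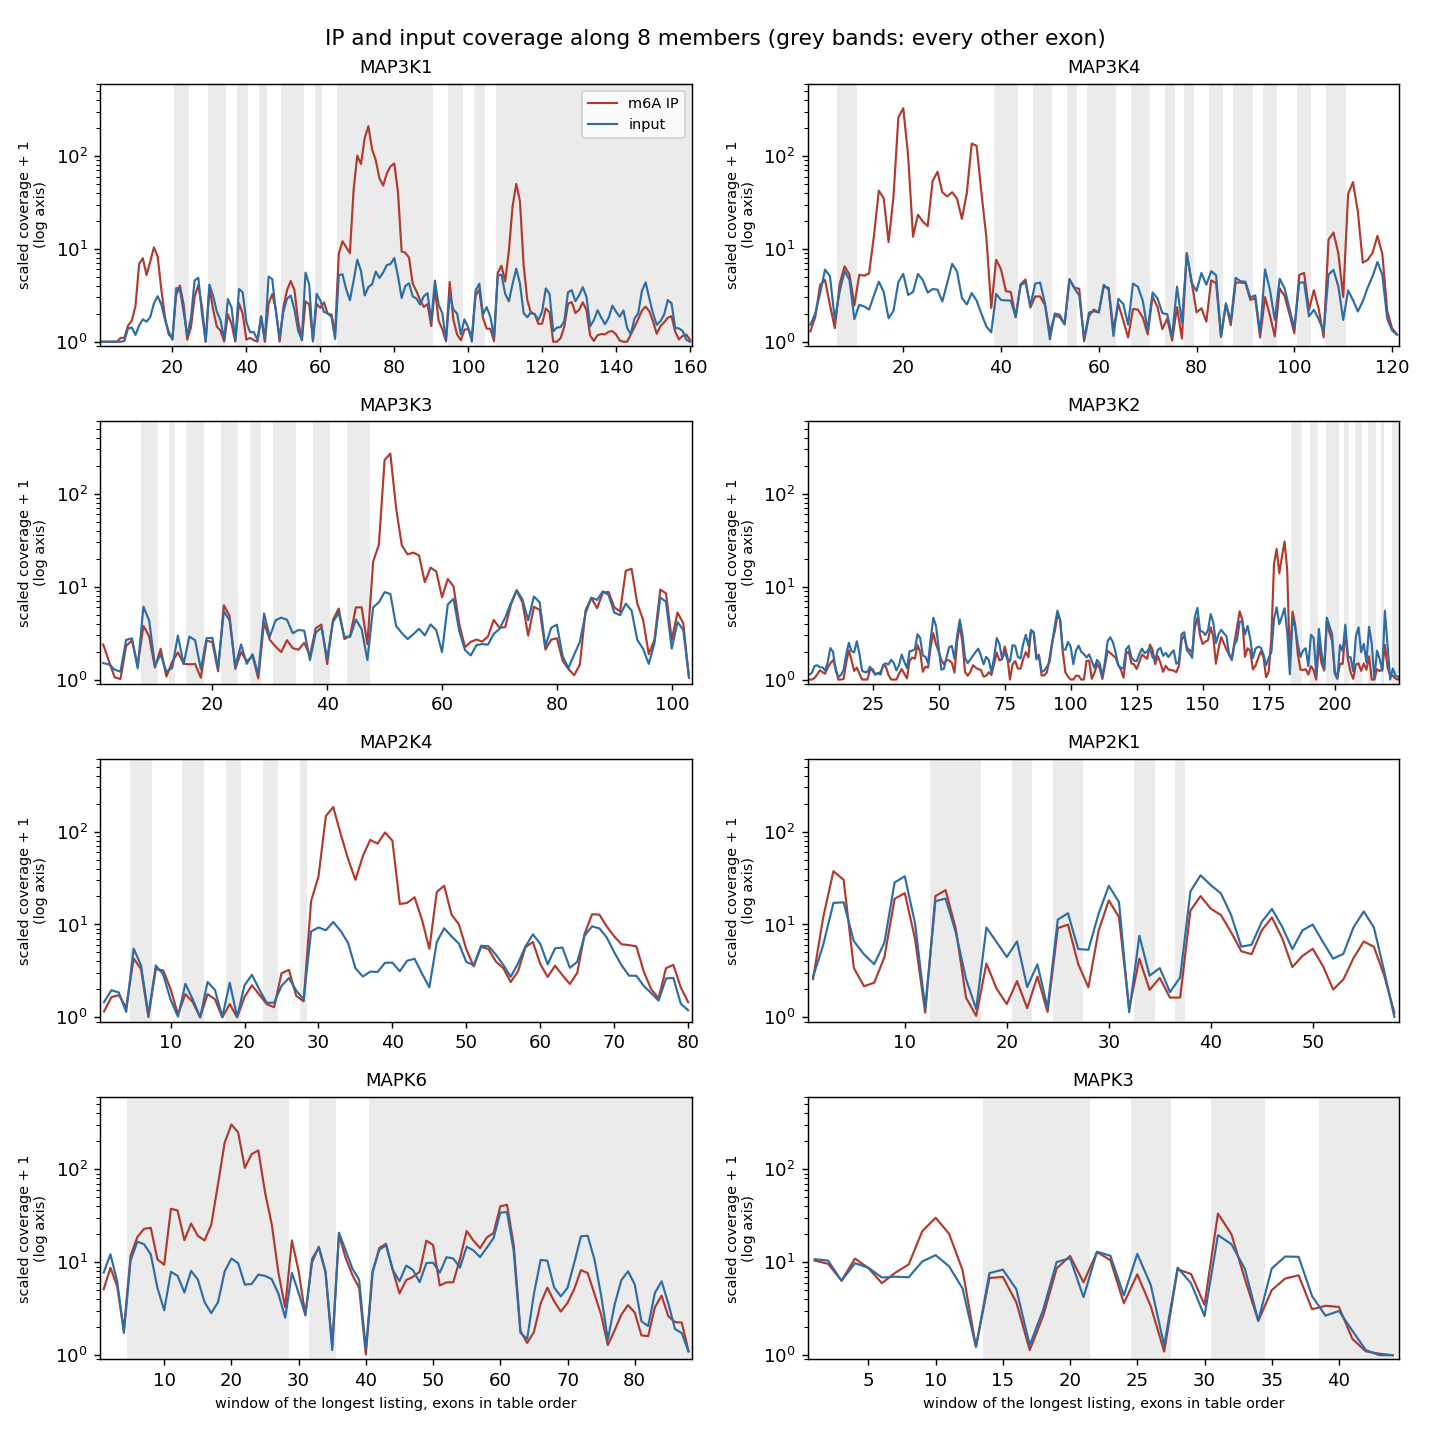
Scaled coverage plus 1 (log axis) in the IP and the input along the windows of 8 members, exons in table order with every other exon shaded. MAP3K1, MAP3K4 and MAPK6 have their high IP in a long internal exon, MAP3K3, MAP3K2 and MAP2K4 beside the inner edge of a terminal exon. In MAP2K1 and MAPK3 the IP stays nearer to the input, with the highest-scoring pair of MAPK3 at 24.2 in the IP and 9.49 in the input.

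MAP3K3 and MAP3K2 (MEKK3 and MEKK2) are close relatives that both feed the ERK5 relay. MAP3K3 had 249.6 in the IP and 7.53 in the input at its highest pair and scored 4.98 (4.78 to 5.17), in a region of 12 windows. MAP3K2 had 21.8 in the IP and 3.55 in the input and scored 2.70 (2.41 to 2.98), in 6 windows. The difference in score was 2.28 (1.94 to 2.62). Both peaks lay near the inner edge of the 3′ terminal exon, at about 150 nt in MAP3K3 and 100 nt in MAP3K2, although that exon had 56 windows in the first and 183 in the second. The region of MAP3K2 was not called at a threshold of 3 or with 5 added before the logarithm.

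The mixed-lineage kinases MAP3K9, MAP3K10 and MAP3K11 activate JNK through MAP2K4 and MAP2K7, and each had a region in its 3′ terminal exon. MAP3K11 had the highest mean input of the MAP3K genes, with averages of 38.2 in the IP and 8.21 in the input. At its highest pair it had 519 in the IP and 23.7 in the input, the highest IP of the whole family at such a pair, and its score was 3.89 (3.77 to 4.01). MAP3K10 scored 3.60 (3.33 to 3.86), and MAP3K11 lay above it by 0.29 (-0.0034 to 0.58). That gap was 0.71 without centring and 1.02 with 5 added, both outside the interval. It also had 2 regions in its 5′ terminal exon, with peaks of 24.3 and 12.2 in the IP and 2.45 and 1.44 in the input. MAP3K9 scored 5.72 (5.43 to 6.0) from 159 in the IP and 1.75 in the input, but its mean input of 0.833 lay under the minimum.

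MAP3K13 and MAP3K12, the leucine zipper kinases LZK and DLK, differed. MAP3K13 had 3 regions and a score of 3.54 (3.22 to 3.87) at a mean of 1.65 in the IP and 0.277 in the input, under the minimum. MAP3K12 had none and scored 0.87 (0.43 to 1.30), at 1.17 in the IP and 1.25 in the input. The difference in score was 2.68 (2.13 to 3.22). With 0.1 added in place of 1 it was 1.53, as MAP3K12 then scored 2.78 and had a region. The longest listing of MAP3K13 had 206 windows and an exon of 135, against 80 windows and no exon above 16 in MAP3K12. Windows of a long terminal exon were thus compared in MAP3K13 only.

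MAP3K8 (TPL2), which activates the ERK relay below Toll-like receptors, had its region in exon 3 of 9. The peak there stood at 134 in the IP and 9.17 in the input, within an internal exon of only 8 windows, and the gene-level score was 3.23 (3.04 to 3.42). The region of MAP3K8 had 3 windows and was not called with runs of at least 4 windows. MAP3K5 (ASK1), which answers oxidative stress, scored 2.36 (2.11 to 2.60), with 28.4 in the IP and 5.79 in the input. Its region was the only one of its gene and lay in the 5′ terminal exon, about 150 nt from the inner edge. It was not called at a threshold of 3, with runs of at least 4 windows or with 5 added. The related MAP3K6 and MAP3K15 lay under the input minimum and had no region. MAP3K6 averaged 0.226 in the IP and 0.191 in the input, and MAP3K15 was close to 0 in both.

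Of the MAP2K genes only the pair that phosphorylates JNK had regions. MAP2K4 had 76.8 in the IP and 2.10 in the input at its highest pair and scored 4.50 (4.22 to 4.79), in a region of 11 windows that began near the inner edge of the 3′ terminal exon. Its IP was highest at 183 in window 4 of that exon, where the input was also highest at 9.62, whereas the score was highest 5 windows further on. MAP2K7 had 96.8 in the IP and 8.46 in the input and scored 3.11 (2.92 to 3.30), also in the 3′ terminal exon. Its peak lay 100 nt from the inner edge, whereas that of MAP2K4 lay 400 nt from it. The scores differed by 1.39 (1.04 to 1.73), and by 0.79 with 5 added before the logarithm.

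The other MAP2K genes lay below the threshold although some had high coverage. MAP2K2 and MAP2K1 (MEK2 and MEK1), which phosphorylate ERK, were well covered. MAP2K2 averaged 20.1 in the IP and 18.7 in the input, and MAP2K1 averaged 6.59 in the IP and 8.85 in the input. At its highest pair MAP2K2 had 137.8 in the IP and 71.3 in the input, and its score was 1.41 (1.32 to 1.51). MAP2K1 scored 1.64 (1.42 to 1.86), a difference of 0.23 (-0.0083 to 0.47) that turned to -0.095 with 5 added. Their longest exons had 8 and 21 windows.

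MAP2K3 and MAP2K6, which phosphorylate p38, scored 1.79 (1.54 to 2.04) and 1.23 (0.92 to 1.53). MAP2K5 (MEK5), the activator of ERK5, scored 1.49 (1.23 to 1.75). None of the 5 had a window run at the threshold, and none gained one when 0.1 was added in place of 1. All 5 did at a threshold of 1, which the background passed in 71.4%.

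Among the MAPK genes, MAPK6 (ERK3), an atypical kinase whose activation loop lacks the tyrosine, had the highest score. It had 276 in the IP and 9.37 in the input at its highest pair and scored 4.69 (4.51 to 4.87). Both of its regions lay in exon 2 of 6, an internal exon of 24 windows, and the larger spanned 10 windows. In exon 2 the IP exceeded the input in all 24 windows, with medians of 24.5 in the IP and 5.86 in the input. In the other exons it did so in 23 of 64 windows, with medians of 4.57 in the IP and 7.002 in the input.

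The p38 kinases all had a region in the 3′ terminal exon, at different scores. MAPK11 (p38 beta) had 92.5 in the IP and 2.02 in the input and scored 4.52 (4.23 to 4.80), with 2 regions about 350 and 1050 nt from the inner edge. MAPK13 (p38 delta) had 167 in the IP and 8.50 in the input and scored 4.38 (4.19 to 4.56). MAPK12 (p38 gamma) had 116 in the IP and 9.99 in the input and scored 3.71 (3.53 to 3.89). MAPK11 exceeded MAPK13 by 0.14, within counting error (-0.20 to 0.48), but by 0.81 without centring, and with 5 added it lay below MAPK13 (-0.13). MAPK13 exceeded MAPK12 by 0.67 (0.41 to 0.93).

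MAPK14 (p38 alpha), the widely expressed form, scored lowest of them at 2.17 (1.86 to 2.47), from 13.2 in the IP and 3.53 in the input. Its 2 regions had 2 windows each, and neither was called at a threshold of 3, with runs of at least 4 windows, with 5 added, without centring on the gene median, or with the median taken over the longest listing alone. By mean input the order of the 4 p38 genes was the reverse of that by score, except that MAPK11 and MAPK13 changed places by score with 5 added. MAPK14 averaged 5.64 in the IP and 4.70 in the input, and MAPK12 averaged 11.1 in the IP and 2.77 in the input. MAPK13 averaged 4.84 in the IP and 2.07 in the input, and MAPK11 averaged 10.7 in the IP and 1.24 in the input. MAPK11 and MAPK12 stand next to each other in the table.

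MAPK3 (ERK1), a last kinase of the ERK relay, was well covered, with a mean of 7.01 in the IP and 6.13 in the input. It had no region and scored 1.30 (1.07 to 1.52), from 24.2 in the IP and 9.49 in the input at its highest pair. Its longest exon had 13 windows.

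MAPK9 and MAPK8 (JNK2 and JNK1) differed. MAPK9 had 41.8 in the IP and 7.53 in the input at its highest pair and scored 2.53 (2.31 to 2.75), in a region of 2 windows about 250 nt into the 3′ terminal exon. That region was not called at a threshold of 3, with runs of at least 4 windows or with 5 added. MAPK8 had 7.69 in the IP and 4.67 in the input and scored 1.21 (0.89 to 1.53). The difference was 1.32 (0.93 to 1.71). The longest listing of MAPK8 had 34 windows and no exon above 6, against 93 windows and an exon of 59 in MAPK9, so windows of a long terminal exon were compared in one gene only.

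MAPK7 (ERK5), whose long C-terminal tail can activate transcription, had regions in exons 4 and 5 of 7, internal exons of 22 and 14 windows. At its highest pair it had 37.4 in the IP and 1.48 in the input and scored 2.75 (2.44 to 3.06). Its gene median stood at 4.59 for the IP against 1.43 for the input, and without centring on these medians the score was 3.96. At a threshold of 3 the centred score gave no region. The remaining MAPK10, MAPK15 and MAPK4 had no region. MAPK10 averaged 0.088 in the IP and 0.119 in the input, and the other two were close to 0 in both.

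**Figure D4:**
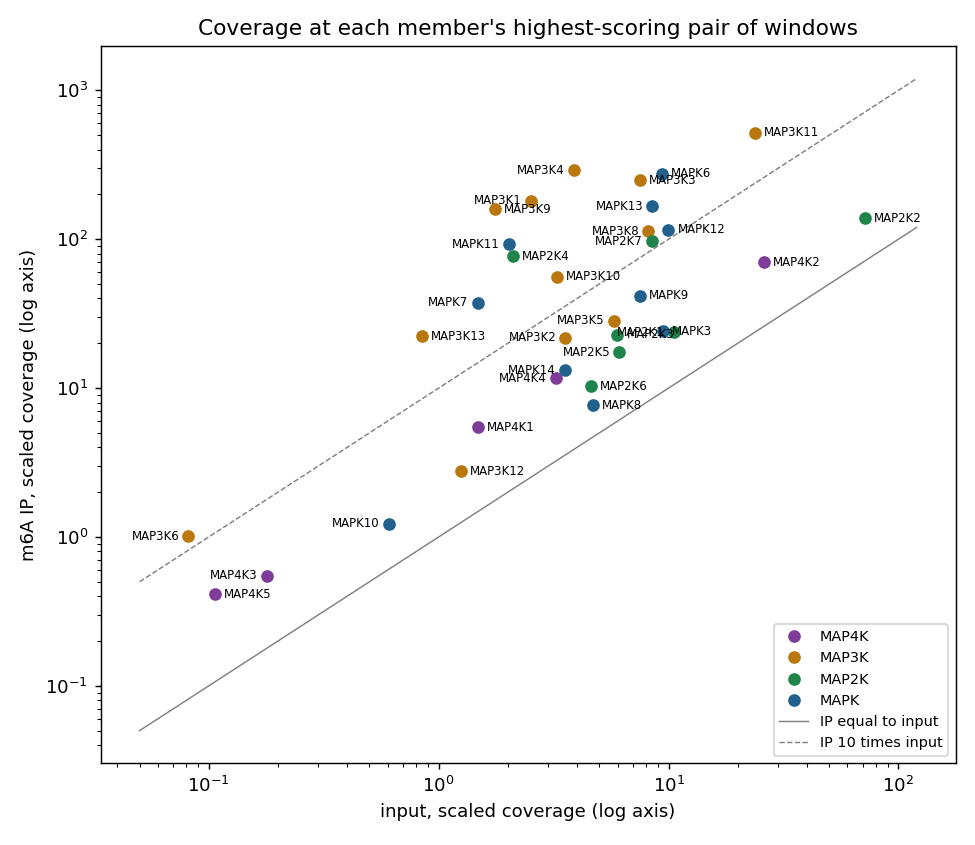
IP coverage (vertical) against input coverage (horizontal, both log axes) at the highest-scoring pair of windows of 34 members with coverage above 0 in both libraries there. The solid line marks equal coverage and the dashed line an IP 10 times the input, which 16 members reach, among them MAP3K6 at an input of 0.081.

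Over whole transcripts, the IP mean exceeded the input mean in 23 of 30 measured members (76.7%, background 67.3%), and by at least 3 times in 11 (36.7%, background 23.7%). The library scale is that of the authors. The median log2 ratio of IP mean to input mean, with nothing added, was 0.46 over the measured members and 0.44 over all measured genes. It was highest in MAPK11, with means of 10.7 in the IP and 1.24 in the input (log2 ratio 3.10), and in MAP3K4, with 15.6 in the IP and 2.25 in the input (2.79). It was lowest in MAP4K5 at -0.51 and MAP2K1 at -0.43.

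Position was read through the order of exons. In the table the highest-numbered exon was longer than the lowest-numbered one in 91.2% of genes on the plus strand and the reverse held in 91% of genes on the minus strand, so exon numbers follow the chromosome. With strands from RefSeq (GRCh38.p14), known here for 34 of the 38 genes, the 3′ terminal exon could be told from the 5′ one. The end is not given here for the other 4, among them MAP3K1, MAP3K15 and MAPK15. Windows carry no genome coordinates.

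The 34 regions of the 20 genes were distributed over 17 peaks in a 3′ terminal exon (50%, exact interval 32.4 to 67.6), 9 in internal exons, 3 in 5′ terminal exons and 5 in terminal exons of unmatched strand, 3 of them in MAP3K1. The interval treats the peaks as independent, although 9 of the 20 genes had at least 2 regions. The corresponding share of 3′ terminal exons over all genes was 45.9%, with 22.7% in terminal exons of unmatched strand. The 17 peaks lay 50 to 2150 nt from the inner edge, with a median of 250 nt, and 14 of them within 400 nt (82.4%). Over all genes 49.2% of 4672 such peaks did, with a median of 450 nt, in exons with a median of 49 windows against 55 in the members. The peaks of MAP3K9 and MAP2K4 lay at 400 nt itself, so the members' count depends on where the limit was set. The difference between members and all genes was not tested.

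**Figure D5:**
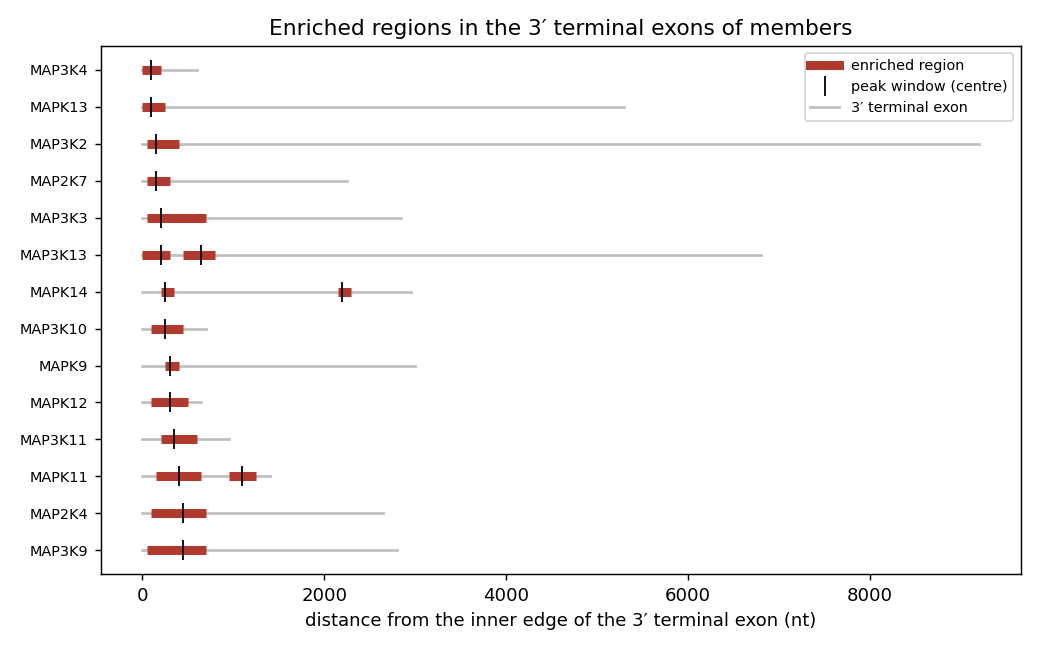
Enriched regions (thick bars) and their peak windows (ticks) in the 3′ terminal exons of 14 members, by distance in nt from the exon's inner edge. All 14 have a peak within 400 nt of that edge, those of MAP3K9 and MAP2K4 at 400 nt itself. MAPK14, MAPK11 and MAP3K13 have another farther out.

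Internal exons split by length. None (0) of 532 internal exons of up to 7 windows held a peak, which allows a share of up to 0.564%. The 532 include exons of the 8 genes under the input minimum, so the limit for measured members alone would be higher. In all measured genes the share was 0.047% at 1 to 5 windows and 3.77% at 6 to 7. Of 16 longer internal exons 7 held one (43.8%), against 47.3% in measured genes. Counting measured members alone it was 6 of 11 (54.5%). Of the 5 exons with 20 or more windows 4 did (80%, against 77.1% in measured genes), the exception being exon 2 of MAPK4, a gene with almost no input. Between 14 and 19 windows 2 of 4 did (50%, against 61.8%), and between 8 and 13 windows 1 of 7 (14.3%, against 30%). Each of these ranges includes an exon of MAP3K9 and an exon of MAP3K13, genes under the input minimum. Of those exons only exon 11 of MAP3K13 held a peak.

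A list of 64 other genes of the pathway, all found, was set beside the members. Of 50 measured, 30 had a region (60%, background 44.2%), with a median score of 2.78. The longest exon of these 50 had a median of 37 windows, against 23 in all measured genes. Background shares by exon length were not summed for this list. In the Ras and Raf group 11 of 19 did. RASGRP3 and SOS1, exchange factors that load Ras, scored 5.35 and 5.20, while RASGRP2 scored 1.09.

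All 5 measured activators of MAP3Ks had a region. TAB1, the adaptor of a MAP3K complex, scored 5.50, from 227 in the IP and 4.77 in the input. GADD45A, a stress-induced activator of MAP3K4, scored 3.12 and TAB3 2.98, while TAB2 at 2.96 and GADD45B at 2.94 were lowest. GADD45B, at 811 in the IP and 21.3 in the input, had the highest IP coverage of the list at such a pair.

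Of the transcription factor targets 5 of 8 had a region. CREB1 scored 6.42, the highest value of either list, from 214 in the IP and 2.26 in the input. ELK4 scored 5.04 and MEF2A 3.19, and MEF2D at 1.11 and ATF2 at 1.48 were lowest. Downstream kinases had a region in 4 of 8, led by MAPKAPK2, a target of p38, at 4.36, RPS6KA1, a target of ERK, at 4.35 and RPS6KA3 at 3.49, with MAPKAPK5 at 0.54 and MKNK1 at 0.70 lowest.

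Kinases with other names had one in 4 of 6. TAOK1, TAOK2 and TAOK3, which act as MAP3Ks, scored 4.11, 3.62 and 3.37, and MINK1 and NLK scored 1.25 and 1.74. Scaffolds and adaptors had one in 1 of 4, the JNK scaffold MAPK8IP3 at 2.83. PEBP1, an inhibitor of the ERK relay, scored 1.39, SPAG9 1.14 and LAMTOR3 0.75.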

How the data were processed

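One m6A IP and one input library of GM12878 cells were analysed. Per the submitters' processing notes TopHat 1.1.3 and the build hg19 were used. Which annotation was used is not given in the sources used here. Per the file headers, the authors deposited a coverage signal per window and library, its gene median, and a log2 window score. Recomputing the score left 0 differences above 1e-09. Coverage values were whole multiples of 1 step (tolerance 0.01) in 100% of windows, with a unit of scaled coverage equal to 3.71 reads per base in the IP and 5.84 in the input. Windows were taken as 100 nt every 50 nt.

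The work used pandas 2.3.3, numpy 2.4.6, scipy 1.17.1 and matplotlib 3.10.9 under Python 3.11.15. Genes with 1 window (95) were left out. Score intervals follow from the variance of randomly placed 36 nt reads, with gene medians and the chosen pair held fixed. The region caller was tested on simulated coverage drawn independently for each window, whereas real windows overlap. The interval was tested on simulated coverage of a fixed window, not on the highest pair of a gene. Named were all members, and from each group of the pathway list the 3 highest and 2 lowest measured genes. Of these, 1 member and 2 genes of the pathway list enter the counts but are not reported here by name. The members and lists were chosen with earlier results of these data known. The alternatives tried were the threshold, run length, pseudocount, centring, median, input minimum and listing.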

Additional observations from a re-analysis of the deposited data

How the results depend on the processing

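With 1 library of each kind no result has a replicate check, and no analysis of paired replicates was possible. The count of 18 measured members with a region was 28 at a score threshold of 1 (background 71.4%) and 4 of 9 with an input minimum of 5 (34.1%), where fewer genes enter. Under the other settings it lay between 12, at a threshold of 3 (26%), and 21, with a pseudocount of 0.1 (51.8%). It was 17 with the median over the longest listing (44.2%) and 18 over any listing (44.8%). The median score of 2.44 became 1.77 with a pseudocount of 5, where that of all measured genes became 1.33, and with a pseudocount of 0.1 the MAP4K median became 2.13. The pathway list had 19 of 50 genes with a region at a threshold of 3 (background 26%). With an input minimum of 5 it had 14 of 23 (34.1%). The share of peaks in the longer terminal exon, 60% in measured members, stayed between 45% and 66.7% under these settings, against 66.7% of peaks in all measured genes at the settings of the report. Single scores fell in 37 of 38 members with a pseudocount of 5 and rose in 36 with 0.1. Of the 38, 5 lost their region with a pseudocount of 5 and 5 gained one with 0.1. Among the genes with a region, MAP3K9 and MAP3K13 had the lowest mean input, at 0.833 and 0.277. At the highest pair the input was 1.75 in MAP3K9 and 0.843 in MAP3K13. It was 1.48 in MAPK7, so low input at the pair is not confined to genes under the minimum.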
